A study of Acomys cahirinus and Mus musculus with 6 samples.

Results

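Interferon-stimulated genes are the genes that a cell switches on after an interferon binds its receptor. A list of 40 of them, chosen by name with earlier results of these data known, was followed through every annotated cell type of healing ear skin. Most of the values concern endothelium, T cells, cluster 7 and the hair follicle. Of the 40 genes, 39 had a row among the 20381 genes of the count table, and Mx2 was not analysed here.

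Droplet single-cell RNA was counted in 6 libraries from ear pinna skin around a healing ear punch. In the first experiment, wild-type spiny mice (Acomys cahirinus, a rodent known for regrowing ear tissue) were injected from day 12 to day 15 with an ERK inhibitor, an ErbB2 inhibitor, an FGFR1/2/3 inhibitor (here FGFR inhibitor) or, as the control, DMSO, the solvent. In the second, laboratory mice of strain CD1 received beads soaked in FGF2 and NRG1, or in PBS as the control, on day 10. ERK is the kinase at the end of a cascade that FGF and ErbB receptors start, FGF2 is a ligand of FGF receptors, and NRG1 is a ligand of ErbB receptors. The sources used here do not give doses, the animals' age and number, any pooling of animals or the day of sampling. Each group was 1 library, so no test was run, no difference could be set against a spread between animals, and every interval covers counting error only.

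Type I and type III interferons act through JAK kinases on a complex that holds STAT2 and IRF9 and switches on antiviral genes, whereas interferon gamma is the stronger inducer of IRF1, the guanylate-binding proteins and MHC class I genes. The products work at different steps of an infection. IFIT proteins bind viral RNA, OAS proteins sense double-stranded RNA, IFITM proteins block virus entry at membranes, Mx and guanylate-binding proteins are GTPases that attack viruses or the vacuoles of pathogens, and ISG15 is a ubiquitin-like tag. In skin, endothelium takes part by presenting antigen and recruiting leukocytes, and T cells are a main source of interferon gamma.

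The table names every gene by its mouse symbol, also in the spiny mouse, so a member's count depends on how much of the spiny mouse RNA was assigned to a mouse gene. In the spiny mouse 3 members had 0 UMIs (unique molecular identifiers, the counted RNA molecules) in all 4 libraries. They were Ifit3b, Oas2 and Oasl2, and 32 members had at least 30 UMIs. In the mouse Mx1 had 0 UMIs in both libraries, Cxcl9 had 15, and 37 members had at least 30. Over the libraries of each species, Mx1 had 2317 UMIs in the spiny mouse and 0 in the mouse, Oas1a had 1108 in the spiny mouse and 44 in the mouse, and Rsad2 had 51 in the spiny mouse and 643 in the mouse. No ratio across species was computed, since 5345 genes had 0 UMIs in the spiny mouse and 986 in the mouse.

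Ifit3 and Ifit3b show how thin the line between symbols can be, and their first 75 coding bases are given here for that reason. Both lie on the plus strand of chromosome 19 (GRCm38, GENCODE vM21 annotation), Ifit3 at 34583531 to 34588731 and Ifit3b at 34607970 to 34613401. The capital marks the base that differs within this stretch.
Ifit3: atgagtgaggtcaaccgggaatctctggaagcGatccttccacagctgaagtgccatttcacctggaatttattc
Ifit3b: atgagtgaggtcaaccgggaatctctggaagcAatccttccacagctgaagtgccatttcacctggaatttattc
Over 1209 coding bases the pair differed at 11, which is 99.09% identity. Within the last 500 transcript bases, where 3′ libraries are read, 12.9% of the 60-base words of Ifit3 also occurred in Ifit3b. Oas1a shared 51.2% of such words with Oas1g, and Ifitm2 shared 38.3% with Ifitm3 and pseudogenes, while Ifit3b shared 0% of its own with any gene. Ifit3, Oas1a and Ifitm2 are uncertain in that their reads can be split between copies, and 12 of the 40 shared at least 1 word with another gene.

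The libraries differed in size and in the share of keratinocyte marker UMIs in other cell classes. How much of that share was free RNA, RNA of other cells caught in a droplet, was not tested. The ERK inhibitor library held 631 cells, with a median of 6915 UMIs per cell. The other spiny mouse libraries held 4782 to 15363 cells with medians from 3125 UMIs in DMSO to 5162.5 with the FGFR inhibitor, and the mouse libraries held 5104 cells with FGF2 and NRG1 beads and 3065 with PBS beads. Of 39393 barcodes, 184 occurred in more than 1 library, and the most that any pair shared was 49. Keratinocyte markers took 0.19% of endothelial UMIs with the ERK inhibitor, 3.40% with the ErbB2 inhibitor, 1.32% with the FGFR inhibitor and 3.64% in DMSO, against 0.21% with FGF2 and NRG1 beads and 0.31% with PBS beads. Endothelial markers ran the other way, at 0.71% with the ERK inhibitor, 0.56% with the ErbB2 inhibitor, 0.54% with the FGFR inhibitor and 0.31% in DMSO, and were at 0.74% with FGF2 and NRG1 beads and 0.76% with PBS beads. A keratinocyte keratin, Krt14, had a UMI in 13.6% of endothelial cells with the ERK inhibitor and in 75.1% in DMSO; in the mouse it had one in 91.0% with FGF2 and NRG1 beads and 96.5% with PBS beads, at a small share of the UMIs. The part of free RNA in the members' ratios was not tested, and medians relative to each class's own markers are given beside them, over the members and over all genes, since that scaling shifts every gene of a class alike.

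Ifitm3 and Ifitm2, the most abundant members, were set against keratinocyte markers in each class. With the ERK inhibitor there were 211 Ifitm3 UMIs for every 100 keratinocyte marker UMIs in endothelium, 156 in cluster 7 and 40.8 in clusters 2 and 26. In DMSO there were 10.8 in endothelium, 8.19 in cluster 7, 5.87 in T cells, 7.88 in clusters 2 and 26 and 6.56 in the outer root sheath, and over all classes of DMSO the number ran from 2.30 in cluster 37 to 16.9 in basal keratinocytes. How much of Ifitm3 and Ifitm2 in T cells and cluster 7 was free RNA was not tested. Gbp3 spread more widely between the classes of DMSO. It had 0.360 UMIs per 100 keratinocyte marker UMIs in T cells, 0.0578 in endothelium, 0.0225 in cluster 7 and 0.00226 in the outer root sheath.

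For endothelium and T cells, the genes that led the clusters included markers of the annotated types. Single cells were less clear in DMSO. There, the class's own markers (with NK markers for T cells) outnumbered every other marker list in 3 of 977 endothelial cells and 2 of 332 T cells. With the ERK inhibitor they did so in 38 of 44 endothelial cells. Endothelium pools clusters 8, 17 and 29. Cluster 8 was led by Vwf and Plvap, and cluster 29 by Kdr. Cluster 17 was led by the lymphatic genes Ccl21a and Mmrn1 but also by Gja4 and Sox17. In DMSO lymphatic markers were 0.156% of the UMIs of cluster 17 and endothelial markers 0.407%, so it is not named by the lymphatic genes. T cells are cluster 28, led by Cd3e, Cd3d and Cd3g, and also by Gzma and Nkg7, which are NK cell genes as well. Cluster 7 is annotated as circulating monocytes but was led by neutrophil genes such as S100a9, and is called by its number. Clusters 2 and 26 are annotated as hair germ and outer bulge; in the mouse, cluster 2 was led by Mlana, Dct and Pmel, melanocyte genes, as well as by Lgr5. The outer root sheath, the outer cell layer of the follicle, is cluster 12.

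Without Ifitm1, Ifitm2 and Ifitm3, the members were most abundant in immune cells and endothelium and scarce in the hair follicle of the spiny mouse. Their summed level in endothelium was 2846 CPM (UMIs of the genes for every 1000000 UMIs of the class; 95% interval 2613 to 3095) with the ERK inhibitor, 1216 with the ErbB2 inhibitor, 1402 with the FGFR inhibitor and 974 in DMSO (937 to 1012). T cells had 1440 CPM with the ErbB2 inhibitor, 2047 with the FGFR inhibitor and 1160 in DMSO, and cluster 7 had 1499 with the ERK inhibitor, 1294 with the ErbB2 inhibitor, 1165 with the FGFR inhibitor and 715 in DMSO. In those 3 classes DMSO was the lowest of the spiny mouse libraries. Clusters 2 and 26 stood at 137 CPM with the ERK inhibitor, 99.4 with the ErbB2 inhibitor, 118 with the FGFR inhibitor and 110 in DMSO. The outer root sheath stood at 77.0 CPM with the ErbB2 inhibitor, 83.5 with the FGFR inhibitor and 83.0 in DMSO, and basal keratinocytes at 98.2 in DMSO. In the mouse, cluster 6, annotated as resident macrophages, had most, at 4586 CPM with FGF2 and NRG1 beads and 2343 with PBS beads. The order of endothelium, T cells and cluster 7 was not the same in every library.

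**Figure D1:**
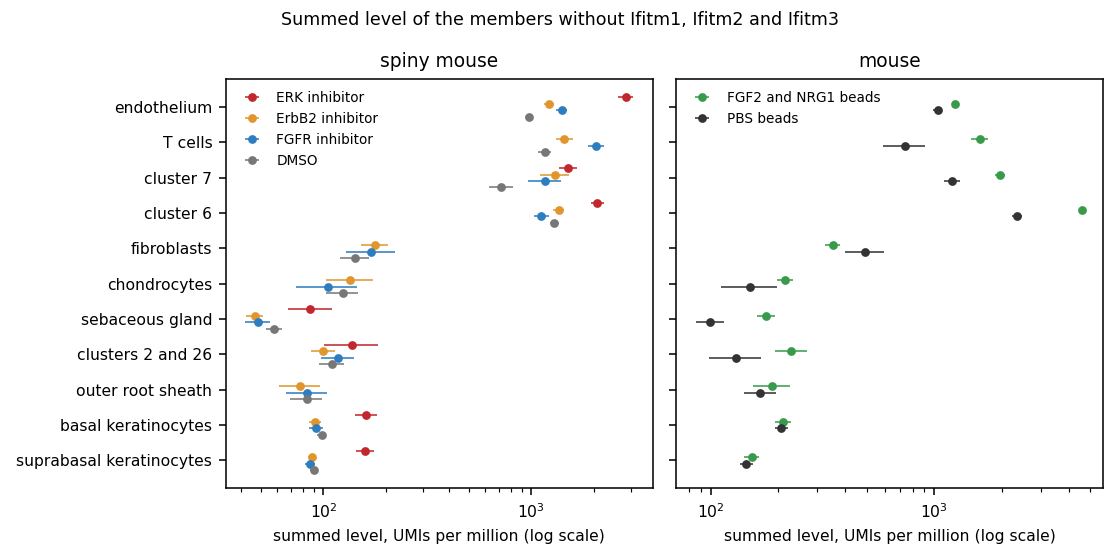
Summed level of the members without Ifitm1, Ifitm2 and Ifitm3, in CPM, by cell class and library, with exact Poisson 95% intervals as bars. Endothelium with the ERK inhibitor stands at 2846 CPM against 974 in DMSO, and clusters 2 and 26 lie between 99.4 and 137 CPM in the spiny mouse.

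The ERK inhibitor library was set against DMSO in endothelium over 44 cells against 977. Of 18 members with at least 30 UMIs over both libraries, 14 were higher by 1.5-fold or more and 0 were lower; among all genes with that many UMIs, 33.3% were higher and 18.6% lower. The other 21 members in the table had fewer UMIs and are not counted. The members' median log2 ratio was 1.69, and that of all genes 0.23. The higher members covered most roles, from the transcription factor Irf1 to GTPases, RNA sensors and membrane proteins, while Isg15, Irf7, Ifitm2 and Ifitm3 differed by less than 1.5-fold.

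Guanylate-binding proteins, which interferon gamma induces strongly, showed some of the widest differences. Gbp2 (chromosome 3, 142620602 to 142638008, plus strand) had 181 CPM in endothelium with the ERK inhibitor, 33.3 with the ErbB2 inhibitor, 36.5 with the FGFR inhibitor and 27.8 in DMSO. Its log2 ratio was 2.73 (2.08 to 3.30) for the ERK inhibitor against DMSO, and both other inhibitor libraries lay within 1.5-fold of DMSO. Gbp3 (chromosome 3, 142560026 to 142573209, plus strand) had 130 CPM with the ERK inhibitor, 27.9 with the ErbB2 inhibitor, 36.5 with the FGFR inhibitor and 21.1 in DMSO, for log2 ratios of 2.65 (1.88 to 3.33) with the ERK inhibitor and 0.82 (0.07 to 1.48) with the FGFR inhibitor. Gbp7 (chromosome 3, 142530342 to 142550149, plus strand) had 264 CPM with the ERK inhibitor, 84.6 with the ErbB2 inhibitor, 97.2 with the FGFR inhibitor and 72.6 in DMSO. A Gbp7 UMI was found in 56.8% of endothelial cells with the ERK inhibitor and in 15.7% in DMSO, so the higher level was not carried by a few cells. Irf1, a transcription factor that switches on many of these genes, had 109 CPM with the ERK inhibitor, 23.4 with the ErbB2 inhibitor, 31.1 with the FGFR inhibitor and 31.2 in DMSO, and only the ERK inhibitor library was past 1.5-fold, at a log2 ratio of 1.85 (1.04 to 2.51).

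Parp14 (chromosome 16, 35832874 to 35871544, minus strand), an ADP-ribosyltransferase, had the highest ratio of the members with enough UMIs. It was at 109 CPM with the ERK inhibitor, 19.8 with the ErbB2 inhibitor, 17.6 with the FGFR inhibitor and 14.7 in DMSO, and its log2 ratio for the ERK inhibitor was 2.92 (2.05 to 3.69). Rtp4, a chaperone-like protein with antiviral activity, had 51.8 CPM with the ERK inhibitor, 10.8 with the ErbB2 inhibitor, 13.5 with the FGFR inhibitor and 10.2 in DMSO. These counts are small: Rtp4 rests on 10 UMIs in the ERK inhibitor library and 27 in DMSO, and its log2 ratio of 2.44 has an interval of 1.14 to 3.44. Samd9l, a restriction factor of poxviruses, was deeper, at 342 CPM with the ERK inhibitor, 167 with the ErbB2 inhibitor, 219 with the FGFR inhibitor and 133 in DMSO.

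Among RNA sensors, Oas1a was the deepest. Its level was 560 CPM with the ERK inhibitor, 202 with the ErbB2 inhibitor, 203 with the FGFR inhibitor and 156 in DMSO, and its UMIs reached 72.7% of endothelial cells with the ERK inhibitor and 28.97% in DMSO. Ifih1, which encodes the double-stranded RNA sensor MDA5, had 41.5 CPM with the ERK inhibitor, 12.6 with the ErbB2 inhibitor, 14.9 with the FGFR inhibitor and 9.02 in DMSO; the ERK inhibitor value rests on 8 UMIs. Ifit3 also had 8 UMIs with the ERK inhibitor, which is 41.5 CPM, against 9.90 CPM with the ErbB2 inhibitor, 22.96 with the FGFR inhibitor and 15.8 in DMSO. The DMSO library lay between the ErbB2 and FGFR inhibitor libraries for Ifit3.

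Mx1 (chromosome 16, 97447035 to 97462907, minus strand), a GTPase active against influenza viruses in mice, was lowest in DMSO. It had 93.3 CPM with the ERK inhibitor, 41.4 with the ErbB2 inhibitor, 49.97 with the FGFR inhibitor and 25.9 in DMSO, and all 3 inhibitor libraries were past 1.5-fold, at log2 ratios of 1.90 (1.01 to 2.61) with the ERK inhibitor, 0.68 (0.10 to 1.23) with the ErbB2 inhibitor and 0.96 (0.33 to 1.54) with the FGFR inhibitor. The 3 comparisons share the DMSO library. Bst2, also called tetherin, which holds budding viruses at the cell surface, had 653 CPM with the ERK inhibitor, 391 with the ErbB2 inhibitor, 462 with the FGFR inhibitor and 313 in DMSO. Its log2 ratio with the ERK inhibitor was 1.07 (0.78 to 1.33), and a Bst2 UMI was found in 77.3% of cells with the ERK inhibitor and 43.8% in DMSO.

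The 3 IFITM genes lie together on chromosome 7 and differed from one another. Ifitm1 (140967221 to 140969825, plus strand) had 1706 CPM with the ERK inhibitor, 1284 with the ErbB2 inhibitor, 1837 with the FGFR inhibitor and 836 in DMSO, and was past 1.5-fold in every inhibitor library. Its UMIs were found in 31.8% of endothelial cells with the ERK inhibitor, 23.9% with the ErbB2 inhibitor, 27.5% with the FGFR inhibitor and 32.96% in DMSO, so the level differed while the share of cells with a UMI was no higher. Ifitm3 (141009586 to 141010770, minus strand) had 4029 CPM with the ERK inhibitor, 3789 with the ErbB2 inhibitor, 3586 with the FGFR inhibitor and 3927 in DMSO, a log2 ratio of 0.04 (-0.07 to 0.14) for the ERK inhibitor. Ifitm2 (140954837 to 140955987, minus strand) had 2509 CPM with the ERK inhibitor, 2091 with the ErbB2 inhibitor, 3186 with the FGFR inhibitor and 2288 in DMSO. Isg15 was also close across libraries, at 67.4 CPM with the ERK inhibitor, 75.6 with the ErbB2 inhibitor, 71.6 with the FGFR inhibitor and 53.0 in DMSO.

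Several members that mark a strong type I response were near or at 0 in spiny mouse endothelium. Rsad2 had 0 UMIs with the ERK inhibitor, 2 with the ErbB2 inhibitor, 0 with the FGFR inhibitor and 0 in DMSO, and Cxcl10 had 0 UMIs with the ERK inhibitor, 1 with the ErbB2 inhibitor, 0 with the FGFR inhibitor and 2 in DMSO. Stat2 had 1 UMI with the ERK inhibitor and 2 in DMSO. A count of 0 among the 192870 UMIs of the ERK inhibitor's endothelium allows up to 15.6 CPM, so these genes were not detectable at this depth rather than absent. The whole table also holds few of their UMIs in this species, with 51 of Rsad2, 67 of Cxcl10 and 217 of Stat2.

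**Figure D2:**
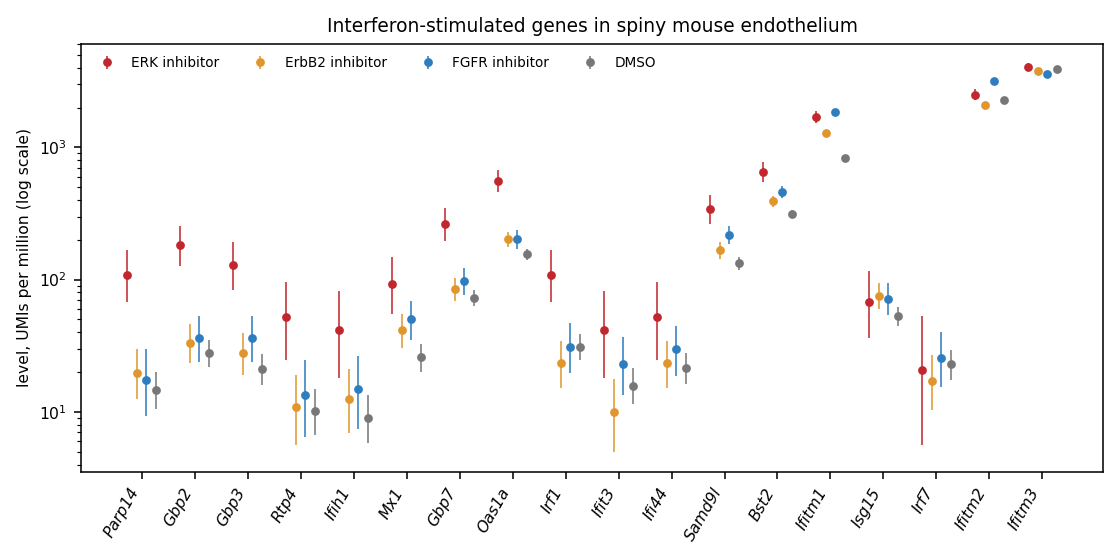
Level of the 18 members with at least 30 UMIs in endothelium over the ERK inhibitor and DMSO libraries, in CPM on a log axis, for the 4 spiny mouse libraries, with exact Poisson 95% intervals. The ERK inhibitor points stand above DMSO by 1.5-fold or more for 14 members, while Ifitm3 lies between 3586 and 4029 CPM in every library.

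The size of the endothelial difference depended on what it was scaled to. Relative to the summed markers of endothelium and lymphatic endothelium, which were 0.799% of UMIs with the ERK inhibitor and 0.341% in DMSO, the median log2 ratio was 0.46 over the members and -1.0 over all genes. The members' median stood 1.46 above that of all genes on either scale, a gap that the scaling cannot change because it shifts every gene alike. Among cells with keratinocyte markers at or below 1% of their UMIs, 41 with the ERK inhibitor and 30 in DMSO, the median was 1.42. By endothelial cluster the median was 1.22 in cluster 8, 1.32 in cluster 17 and 0.59 in cluster 29, where the ERK inhibitor library held 11 cells. The medians of these subsets were computed with UMIs added in proportion to depth. Members were those with enough UMIs in pooled endothelium, so the values are not directly comparable in size with the pooled median. The deepest endothelial cell of that library held 10.95% of its UMIs. After each cell was thinned to 1000 UMIs, at least 2 different members outside the IFITM genes were found in 70.7% of endothelial cells with the ERK inhibitor (54.5 to 83.9), 29.5% with the ErbB2 inhibitor, 35.1% with the FGFR inhibitor and 23.9% in DMSO (21.04 to 26.9). Thinning left out 3 cells with the ERK inhibitor and 131 in DMSO, and the unthinned shares were 95.5% with the ERK inhibitor and 49.1% in DMSO.

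With the ErbB2 inhibitor, endothelium (431 cells against 977) had 3 of 20 members higher and 0 lower, where 10.0% of all genes were higher and 8.25% lower. The higher members were Trim25, the ubiquitin ligase that activates RIG-I, at a log2 ratio of 1.26 (0.16 to 2.35), Mx1, and Ifitm1 at 0.62 (0.52 to 0.72). Trim25 had 16 UMIs in each library, which is 14.4 CPM with the ErbB2 inhibitor and 6.01 in DMSO. The median log2 ratio was 0.30 over the members and 0.03 over all genes, and relative to endothelial markers the medians were -0.62 over the members and -0.90 over all genes.

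With the FGFR inhibitor, endothelium (240 cells against 977) had 6 of 19 members higher and 0 lower, and the shares among all genes were 15.2% and 9.47%. They were Ifitm1 at a log2 ratio of 1.14 (1.04 to 1.23), Mx1, Gbp3, Ifih1, Samd9l at 0.73 (0.44 to 0.99) and Ifit3. The intervals of Ifih1, at 0.79, and of Ifit3, at 0.59, include 0. The median was 0.48 over the members and 0.10 over all genes, and relative to endothelial markers the medians were -0.41 over the members and -0.79 over all genes.

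In the spiny mouse, T cells of the FGFR inhibitor library were set against those of DMSO. Over 110 cells against 332 in DMSO, 5 of 9 members were higher and 1 lower, beside 17.4% and 14.5% of all genes, and the median log2 ratio was 0.87 over the members and 0.06 over all genes. Gbp3 had 380 CPM with the FGFR inhibitor and 158 in DMSO, a log2 ratio of 1.27 (0.84 to 1.69), and Gbp7 had 429 CPM with the FGFR inhibitor and 228 in DMSO, a log2 ratio of 0.92 (0.53 to 1.29). A Gbp7 UMI was found in 55.5% of T cells with the FGFR inhibitor and 30.1% in DMSO. Ifitm1 had 1827 CPM with the FGFR inhibitor and 729 in DMSO, and its log2 ratio of 1.33 (1.13 to 1.52) was the highest in these cells. Ifi27l2a, a small mitochondrial protein gene, had 572 CPM with the FGFR inhibitor and 315 in DMSO, and Samd9l had 192 CPM with the FGFR inhibitor and 105 in DMSO.

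Ifitm3 was the member that was lower, at 1173 CPM with the FGFR inhibitor and 2578 in DMSO, a log2 ratio of -1.13 (-1.32 to -0.95). Keratinocyte markers moved the same way, at 1.48% of T cell UMIs with the FGFR inhibitor and 4.39% in DMSO. Markers of T cells and NK cells together stood at 0.959% of UMIs with the FGFR inhibitor and 0.632% in DMSO, and relative to them the medians were 0.26 over the members and -0.54 over all genes. Thinned to 1000 UMIs, 46.3% of T cells with the FGFR inhibitor (36.7 to 56.2) and 27.8% in DMSO (22.7 to 33.4) held at least 2 members outside the IFITM genes; 2 cells were left out with the FGFR inhibitor and 48 in DMSO, and unthinned the shares were 72.7% with the FGFR inhibitor and 45.8% in DMSO.

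With the ErbB2 inhibitor, 0 of 9 members were higher in T cells and 1 was lower (128 cells against 332), where all genes had 12.2% higher and 10.4% lower. Ifitm3 was lower again, at 1457 CPM with the ErbB2 inhibitor and 2578 in DMSO, with keratinocyte markers at 2.85% of UMIs with the ErbB2 inhibitor and 4.39% in DMSO. Ifi27l2a was the highest of the rest, at 452 CPM with the ErbB2 inhibitor and 315 in DMSO, a log2 ratio of 0.53 (0.20 to 0.85). The ERK inhibitor library held 19 T cells, too few for a ratio here. Among those 19, a Gbp2 UMI was found in 63.2% against 18.1% of T cells in DMSO, a Gbp3 UMI in 78.9% against 21.7% in DMSO, and a Gbp7 UMI in 89.5% against 30.1% in DMSO. The median depth of these cells was 4184 UMIs with the ERK inhibitor and 1399.5 in DMSO, and their summed level without the IFITM genes was 2580 CPM (2246 to 2949) with the ERK inhibitor against 1160 (1075 to 1249) in DMSO. The guanylate-binding genes named are only a part of the members, and their shares were not thinned to a like depth. Shares over all genes were not computed for these cells, so no difference is read from the shares.

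Cluster 7 differed between libraries in what it contained. Neutrophil markers made up 28.8% of its UMIs with the ERK inhibitor, 5.80% with the ErbB2 inhibitor, 5.86% with the FGFR inhibitor and 3.16% in DMSO, and keratinocyte markers made up 0.15% with the ERK inhibitor, 4.87% with the ErbB2 inhibitor, 2.99% with the FGFR inhibitor and 5.34% in DMSO. The median cell had 5167 UMIs with the ERK inhibitor and 1192 in DMSO. Whether the members' ratios in this cluster compare like cells was not tested.

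With the ERK inhibitor, cluster 7 (55 cells against 227) had 7 of 11 members higher and 3 lower, beside 25.7% and 44.9% of all genes, and the members' median log2 ratio was 1.12 where that of all genes was -0.39. Gbp7 had 122 CPM with the ERK inhibitor and 30.1 in DMSO, a log2 ratio of 1.92 (0.97 to 3.20). Isg20, an exonuclease that degrades viral RNA, had 183 CPM with the ERK inhibitor and 57.1 in DMSO. The other higher members were Samd9l at a log2 ratio of 1.45, Mx1 at 1.38, Ifi27l2a at 1.14, Irf1 at 1.12 and Gbp2 at 0.85.

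All 3 IFITM genes were lower in cluster 7 with the ERK inhibitor. Ifitm2 had 50.2 CPM with the ERK inhibitor and 1259 in DMSO, a log2 ratio of -4.55 (-5.53 to -3.89), Ifitm1 had 17.9 CPM with the ERK inhibitor and 99.2 in DMSO, and Ifitm3 had 2391 CPM with the ERK inhibitor and 4370 in DMSO, a log2 ratio of -0.87 (-1.004 to -0.737). The Ifitm1 ratio of -2.25 rests on 5 UMIs with the ERK inhibitor and 33 in DMSO, and it was 1.38 over the cells led by neutrophil markers, 54 with the ERK inhibitor and 63 in DMSO. The value of 1.38 rests on at most those 5 UMIs with the ERK inhibitor, too few to settle a direction. Relative to the summed neutrophil markers the medians were -2.06 over the 11 members and -3.58 over all genes. They are as far apart as on the CPM scale by construction, because the scaling shifts every gene alike.

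With the ErbB2 inhibitor, cluster 7 (103 cells against 227) had 4 of 9 members higher and 1 lower, beside 17.7% and 16.3% of all genes, with medians of 0.48 over the members and 0.03 over all genes. Ifitm1 had 399 CPM with the ErbB2 inhibitor and 99.2 in DMSO, Mx1 had 171 with the ErbB2 inhibitor and 45.1 in DMSO, and Samd9l had 220 with the ErbB2 inhibitor and 69.1 in DMSO. Irf1 was the remaining member that was higher, at a log2 ratio of 0.72 whose interval of -0.43 to 1.73 includes 0. Ifitm2 was lower, at 675 CPM with the ErbB2 inhibitor and 1259 in DMSO. With the FGFR inhibitor (89 cells against 227), 5 of 8 members were higher and 1 lower, beside 24.8% and 21.7% of all genes. The higher ones were Samd9l at a log2 ratio of 1.23 (0.21 to 2.18), Irf1 at 1.12 (0.04 to 2.10), and Ifi27l2a, Ifitm1 and Gbp2 at 0.60 to 0.64 with intervals that include 0. Gbp2 had 132 CPM with the FGFR inhibitor and 90.2 in DMSO, and passed 1.5-fold only with the 1 UMI added to each count. Ifitm2 was lower, at 817 CPM with the FGFR inhibitor and 1259 in DMSO, a log2 ratio of -0.61 (-0.97 to -0.29). The members' median of 0.62, beside 0.02 over all genes, was -0.20 after cells were thinned to 1000 UMIs, -0.27 relative to neutrophil markers (-0.87 over all genes) and -0.48 over members with at least 100 UMIs.

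**Figure D3:**
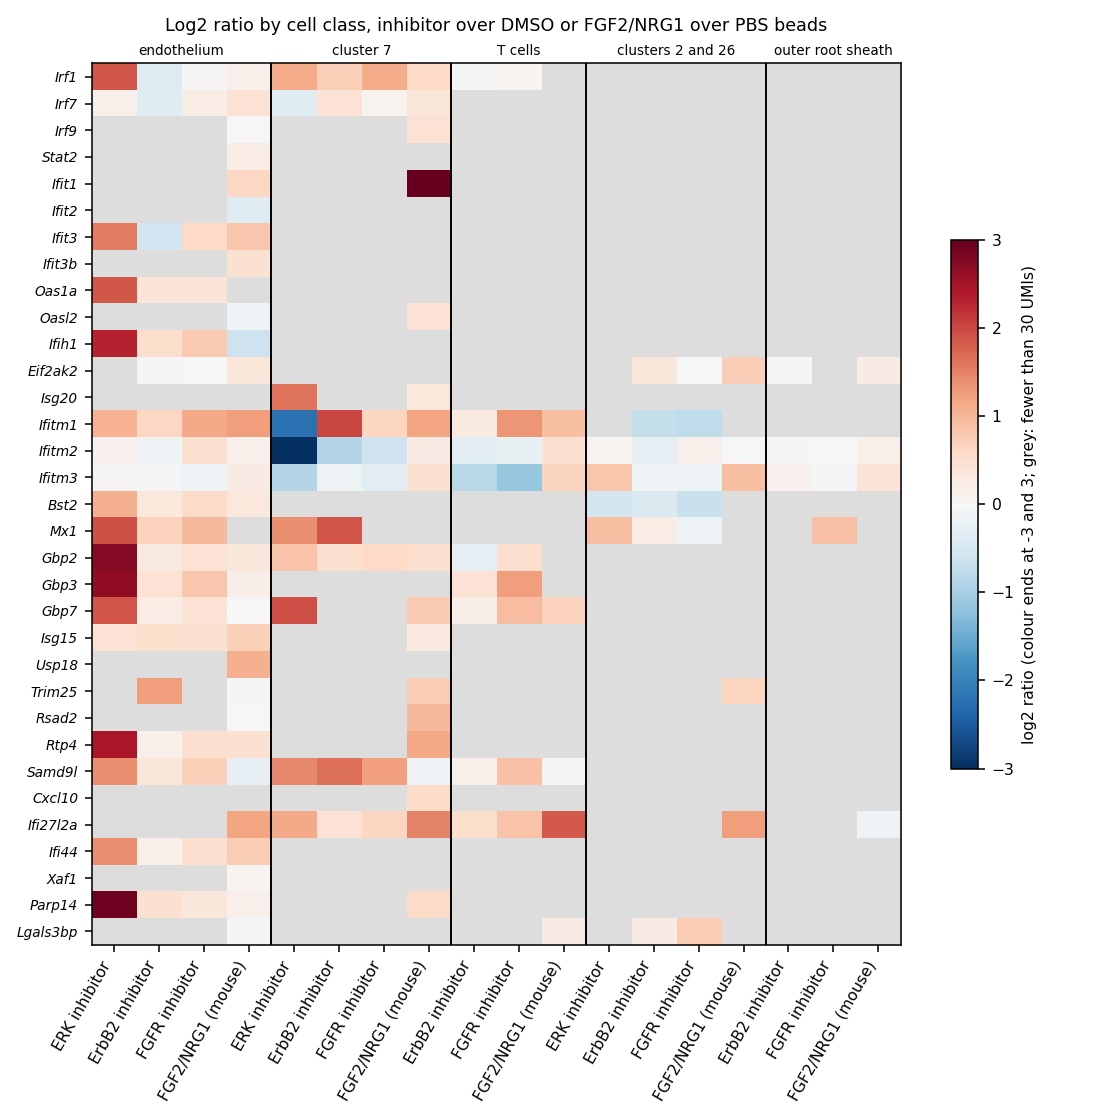
Log2 ratios of the members by cell class and comparison, coloured from lower (to -3) to higher (to 3) in the first-named library, with grey where both libraries together held fewer than 30 UMIs. The column of endothelium with the ERK inhibitor is higher in 14 of 18 members, and the columns of clusters 2 and 26 and of the outer root sheath hold 3 to 7 members in view.

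In the hair follicle few members had enough UMIs to compare. Clusters 2 and 26 with the ERK inhibitor (54 cells against 923) had 2 of 4 members higher and 0 lower, where 22% of all genes were higher and 12.7% lower; the medians were 0.46 over the members and 0.16 over all genes. Ifitm3 had 5767 CPM with the ERK inhibitor, 2923 with the ErbB2 inhibitor, 2888 with the FGFR inhibitor and 3215 in DMSO. Only the ERK inhibitor library was past 1.5-fold for Ifitm3, at a log2 ratio of 0.84 (0.77 to 0.92). Mx1 had 8 UMIs with the ERK inhibitor and 26 in DMSO, a log2 ratio of 0.89 whose interval, -0.58 to 1.96, includes 0. Keratinocyte markers made up 1.41% of UMIs of these clusters with the ERK inhibitor and 4.08% in DMSO. Krt14 had a UMI in 88.9% of these cells with the ERK inhibitor and 80.2% in DMSO. How much of that was free RNA and how much the cells' own was not tested.

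With the ErbB2 inhibitor (942 cells against 923), clusters 2 and 26 had 0 of 7 members higher and 1 lower, where 12.4% of all genes were higher and 7.51% lower, and medians of -0.14 over the members and 0.05 over all genes. The lower member was Ifitm1, with 17 UMIs against 24 and a log2 ratio of -0.71 (-1.72 to 0.22). With the FGFR inhibitor (371 cells against 923) 1 of 7 was higher and 2 lower, where 10.6% and 6.47% of all genes were, and the medians were -0.15 over the members and 0.10 over all genes. Lgals3bp was higher at 0.76, Bst2 was lower at -0.66 and Ifitm1 at -0.75, and all 3 intervals include 0. In the outer root sheath with the ErbB2 inhibitor 0 of 3 members were higher and 0 lower (217 cells against 470), beside 8.49% and 7.44% of all genes, and the medians were 0.03 over the members and 0.04 over all genes. With the FGFR inhibitor (157 cells) 1 was higher and 0 lower, beside 8.33% and 7.25%, with a median of 0.01 over the members and 0.03 over all genes; the higher member was Mx1, at a log2 ratio of 0.89 (-0.19 to 2.00).

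Laboratory mice with FGF2 and NRG1 beads were set against PBS beads. In endothelium (940 cells against 346) 7 of 29 members were higher and 1 lower, where 4.41% of all genes were higher and 9.86% lower, and the median log2 ratio was 0.22 over the members and -0.08 over all genes. Among the higher members, Ifi27l2a and Isg15 held the most UMIs. Ifi27l2a had 78.1 CPM with FGF2 and NRG1 beads and 34.1 with PBS beads, a log2 ratio of 1.17 (0.79 to 1.63), and Isg15 had 74.0 CPM with FGF2 and NRG1 beads and 44.4 with PBS beads, a log2 ratio of 0.72 (0.37 to 1.12). Ifitm1 had the highest ratio, 1.24 (0.52 to 2.25), from 105 UMIs against 14. Usp18, the protease that removes ISG15 from proteins, followed at 1.07, Ifit3 at 0.80, Ifi44 at 0.74 and Ifit1 at 0.61.

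The lower member was Ifih1, at 11.2 CPM with FGF2 and NRG1 beads and 17.04 with PBS beads, a log2 ratio of -0.63 whose interval, -1.29 to 0.11, includes 0. Several further members lay within 1.5-fold. Irf1 had 37.5 CPM with FGF2 and NRG1 beads and 33.5 with PBS beads, Stat2 had 31.8 with FGF2 and NRG1 beads and 26.8 with PBS beads, Bst2 had 254 with FGF2 and NRG1 beads and 202 with PBS beads, and Rsad2 had 8.36 with FGF2 and NRG1 beads and 7.91 with PBS beads. Irf7, a transcription factor of the type I loop, had 20.4 CPM with FGF2 and NRG1 beads and 14.6 with PBS beads, a log2 ratio of 0.44 (-0.17 to 1.19), and Cxcl10 was below 30 UMIs. Thinned to 1000 UMIs, at least 2 members outside the IFITM genes were found in 30.1% of endothelial cells with FGF2 and NRG1 beads (27.1 to 33.2) and 21.7% with PBS beads (17.3 to 26.6), and unthinned in 78.0% with FGF2 and NRG1 beads and 68.2% with PBS beads; 56 cells were left out with FGF2 and NRG1 beads and 23 with PBS beads.

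Mouse cluster 7 (611 cells against 307) had 8 of 19 members higher and 0 lower with FGF2 and NRG1 beads, where 15.2% of all genes were higher and 8.86% lower, and medians of 0.55 over the members and 0.10 over all genes. Neutrophil markers made up a like share in both libraries, 7.51% of UMIs with FGF2 and NRG1 beads and 7.42% with PBS beads, while the median cell had 1107 UMIs with FGF2 and NRG1 beads and 1708 with PBS beads. Ifitm1 had 5273 CPM with FGF2 and NRG1 beads and 2317 with PBS beads, and its log2 ratio of 1.19 (1.09 to 1.28) had the narrowest interval of the 8. Ifi27l2a (chromosome 12, 103442167 to 103443680, minus strand) had 215 CPM with FGF2 and NRG1 beads and 75.7 with PBS beads, a log2 ratio of 1.48 (0.9996 to 2.04).

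Ifit1 had the highest ratio in mouse cluster 7, 3.52 (2.14 to 7.16), from 44 UMIs in 3.27% of cells with FGF2 and NRG1 beads and 2 UMIs in 0.651% with PBS beads. Rsad2, also called viperin, which makes an antiviral nucleotide, had 67.9 CPM with FGF2 and NRG1 beads and 33.2 with PBS beads, in 3.60% of cells with FGF2 and NRG1 beads and 4.23% with PBS beads. For both genes the UMIs lay in a small share of the cells. Rtp4 was higher at a log2 ratio of 1.15, Gbp7 at 0.79, Trim25 at 0.74 and Irf1 at 0.60. Isg15 had 424 CPM with FGF2 and NRG1 beads and 347 with PBS beads, a log2 ratio of 0.29 (0.02 to 0.56), and Irf7 had 33.9 CPM with FGF2 and NRG1 beads and 25.8 with PBS beads.

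Mouse T cells (136 cells against 36) had 4 of 7 members higher and 0 lower, where 11.3% of all genes were higher and 10.4% lower, and medians of 0.67 over the members and -0.02 over all genes. Ifi27l2a had 552 CPM with FGF2 and NRG1 beads and 146 with PBS beads, a log2 ratio of 1.84 (1.20 to 2.73). Its UMIs were found in 22.1% of T cells with FGF2 and NRG1 beads and 25% with PBS beads, so the share was not higher where the level was. Ifitm1 was at 0.91 (0.41 to 1.52), and Gbp7 at 0.68 and Ifitm3 at 0.67 had intervals that include 0. Among members under 30 UMIs, Ifit3 had 16 UMIs in 2.94% of T cells with FGF2 and NRG1 beads and 0 with PBS beads.

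**Figure D4:**
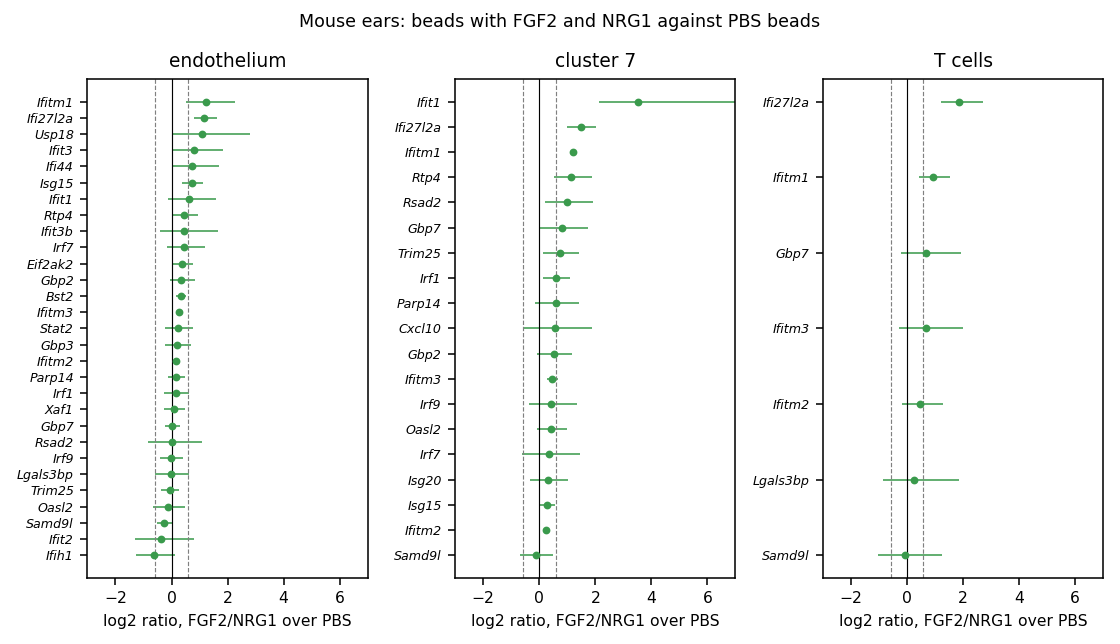
Log2 ratios of the members, FGF2 and NRG1 beads against PBS beads, in endothelium, cluster 7 and T cells of the mouse, with exact conditional binomial 95% intervals; dashed lines mark 1.5-fold either way. Ifi27l2a lies to the right of the upper line in all 3 classes, at 1.17 in endothelium, 1.48 in cluster 7 and 1.84 in T cells.

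In the mouse, clusters 2 and 26 (139 cells against 74), of which cluster 2 was led by melanocyte as well as hair follicle genes, had 4 of 5 members higher and 0 lower, where 6.63% of all genes were higher and 10.0% lower, and medians of 0.75 over the members and -0.04 over all genes. Ifitm3 had 292 CPM with FGF2 and NRG1 beads and 155 with PBS beads, a log2 ratio of 0.90 (0.51 to 1.34), and Ifi27l2a had 54.0 CPM with FGF2 and NRG1 beads and 20.9 with PBS beads, a log2 ratio of 1.26 (0.29 to 2.61). Eif2ak2, the kinase PKR that stops translation on double-stranded RNA, was at 0.75 and Trim25 at 0.63, with intervals that include 0. In the outer root sheath (96 cells against 92) 0 of 4 members were higher and 0 lower, beside 6.40% and 7.66% of all genes, with medians of 0.20 over the members and -0.03 over all genes.

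Cluster 6 of the mouse was added after the other classes were seen, as the cell type with the highest member level. With FGF2 and NRG1 beads (566 cells against 107) 22 of 37 members were higher and 0 lower, where 11.4% of all genes were higher and 9.33% lower, and the medians were 0.86 over the members and -0.01 over all genes. Cxcl10, a chemokine that attracts T cells, had 72.0 CPM with FGF2 and NRG1 beads and 7.03 with PBS beads, and Rsad2 had 179 CPM with FGF2 and NRG1 beads and 19.7 with PBS beads. Ifit3 had 315 UMIs with FGF2 and NRG1 beads and 11 with PBS beads, a log2 ratio of 2.81 (2.07 to 3.95), and Ifi44 reached 2.85 from 53 UMIs against 1. Cxcl10 UMIs were found in 4.06% of cells with FGF2 and NRG1 beads and 3.74% with PBS beads, so its higher level lay in a small share of the cells. Siglech, a plasmacytoid dendritic cell marker, had a UMI in 59 of 566 cells with FGF2 and NRG1 beads and 2 of 107 with PBS beads. Without those cells the median was also 0.86. Plasmacytoid cells without a counted Siglech UMI would have stayed in, so their part in the ratios was not tested.

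Other genes of the pathway were read from lists by role, with the same minimum of 30 UMIs. In endothelium with the ERK inhibitor, where 33.3% of all genes were higher and 18.6% lower, 4 of 5 interferon receptor genes were higher, 2 of 2 sensors and adaptors, 2 of 5 inhibitors and 7 of 9 genes of antigen processing and MHC class I, and 0 in these lists were lower. Among the higher receptors, the intervals of Ifnar1, Ifnar2 and Ifngr2 include 0, as does that of the sensor Ddx58. Ifngr2 had 88.1 CPM with the ERK inhibitor and 60.1 in DMSO, and passed 1.5-fold only with the 1 UMI added to each count. Ifnar1 and Ddx58 each had 6 UMIs with the ERK inhibitor. Ifngr1, a chain of the interferon gamma receptor, had 534 CPM with the ERK inhibitor and 193 in DMSO, and B2m, the light chain of MHC class I, had 2904 with the ERK inhibitor and 1551 in DMSO. In the ErbB2 inhibitor library 1 of 5 receptors and 3 of 10 MHC class I genes were higher and 0 lower, beside 10.0% and 8.25% of all genes. In the FGFR inhibitor library 1 of 5 receptors, 1 of 5 inhibitors and 4 of 10 MHC class I genes were higher and 0 lower, beside 15.2% and 9.47% of all genes. Ifngr1 was also higher with the ErbB2 inhibitor, at 502 CPM against 193 in DMSO.

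In T cells with the FGFR inhibitor, where 17.4% of all genes were higher and 14.5% lower, 5 of 8 MHC class I genes were higher and 0 lower, B2m at 3784 CPM with the FGFR inhibitor and 2273 in DMSO, and Psmb8, a subunit of the immunoproteasome, at 838 with the FGFR inhibitor and 548 in DMSO. Also higher were 2 of 2 sensors and adaptors, 2 of 5 inhibitors and 1 of 3 receptors, and 0 were lower. With the ErbB2 inhibitor 2 of 8 MHC class I genes and 1 of 3 receptors were higher there, and 1 receptor (Ifngr2) and 1 of 5 inhibitors (Ptpn2) were lower, beside 12.2% of all genes higher and 10.4% lower; the intervals of Ifngr2, at -0.91, and Ptpn2, at -0.70, include 0. In mouse endothelium with FGF2 and NRG1 beads 0 of 5 receptors, 0 of 8 sensors and adaptors, 0 of 7 inhibitors and 0 of 11 MHC class I genes were higher and 0 lower, beside 4.41% of all genes higher and 9.86% lower. Other mouse classes differed. MHC class I genes were higher for 3 of 10 in T cells, beside 11.3% of all genes, and 0 were lower. They were higher for 3 of 10 in clusters 2 and 26 (6.63%) and 2 of 11 in cluster 7 (15.2%), again with 0 lower. Of inhibitors, 2 of 5 were lower in clusters 2 and 26 (10.0%) and 1 of 7 in cluster 7 (8.86%). Of 12 interferon ligand genes only Ifnk had a row in the table, and it had too few UMIs for a ratio in any of these classes, so no ligand was measured.

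Among the remaining annotated types, dendritic cells with the FGFR inhibitor (34 cells against 89) stood apart in summed level, at 1487 CPM without the IFITM genes against 506 in DMSO. Some of these UMIs lay in few cells. Isg15 had 27 UMIs in 2 cells, Cxcl9 had 25 UMIs in 6 cells and Gbp2 had 18 UMIs in 3 cells of the FGFR inhibitor library, where the members without the IFITM genes held 241 UMIs in all. Of the members with at least 30 UMIs there, Isg20 had the highest log2 ratio, 1.41 (0.38 to 2.61), and Samd9l followed at 0.76 (0.02 to 1.53).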

How the data were processed

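The UMI counts, as deposited, are whole numbers for each of 20381 genes in each of 39577 cells from 6 libraries, and a deposited table of cells gives, per the file headers, each cell's cluster, its cell type name and the percent of its UMIs that were haemoglobin, ribosomal or mitochondrial. Cell Ranger 6.1.1 and the mouse builds GRCm38 and mm10 are named in the submitters' processing notes; the sources used here do not say whether they served the spiny mouse reads. The fewest genes in any cell were 501, cells were not filtered further, and no doublet caller was run.

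UMIs were added up within each library and cell class, the classes being taken from the authors' annotation by cluster. Ratios are log2 ratios of CPM (UMIs for every 1000000 UMIs of the class) with 1 UMI added to each count, in classes of at least 30 cells in both libraries and for genes of at least 30 UMIs over both. Intervals are exact at 95% (conditional binomial for ratios, Poisson for levels, Clopper-Pearson for shares) and cover counting error only. Higher and lower mean at least 1.5-fold in this ratio. The added UMI raises the ratio toward the library with fewer UMIs in the class, so a call near 1.5-fold can fall below it in plain CPM. Where a count is 0, a floor of 3 UMIs gives the limit. With 1 library per group no test was run. On counts simulated from the Poisson model behind the intervals, they held the true ratio for 95.9% to 97.0% of genes in endothelium. That checks the computation only, since the simulation left out the uneven spread of UMIs between cells.

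The members, lists and comparisons were chosen with earlier results of these data known. In each class the text names up to 4 highest and 4 lowest members past 1.5-fold, the 5 most abundant members, and Irf1, Irf7, Isg15, Ifitm3, Bst2, Ifit3, Rsad2, Mx1, Stat2 and Cxcl10 where they had UMIs to describe, and at most 2 genes per pathway list. The list of signal transducers is not reported here. Alternatives were other UMI minimums, thinning to 1000 UMIs per cell, means over cells, a proportional pseudocount, scaling to all genes, cells led by their class's markers, leaving out the deepest cell, and a 2-fold threshold. Cells led by their class's markers were compared only with at least 30 in both libraries. T cells and spiny mouse endothelium had too few and were not compared that way. Scaling to class markers, cells low in keratinocyte markers, single endothelial clusters, and mouse cluster 6 with and without Siglech cells were added after seeing the data. Thinned cells and subsets of cells chosen by markers, cluster or Siglech used the proportional pseudocount, for genes that passed the minimum in the whole class. Python 3.11.15, NumPy 2.4.6, SciPy 1.17.1, pandas 2.3.3 and matplotlib 3.10.9 were used.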

Additional observations from a re-analysis of the deposited data

Results flagged for a closer look

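Ifitm1 stood out because its 2 class values in the ERK inhibitor comparison pointed opposite ways. Its log2 ratio was 1.03 (0.86 to 1.20) in endothelium and -2.25 (-4.18 to -1.10) in cluster 7, a difference of 3.28 that was not tested. In cluster 7 it had 5 UMIs with the ERK inhibitor and 33 in DMSO. Over cells led by neutrophil markers the ratio was 1.38, from at most 5 UMIs with the ERK inhibitor. Counts that small do not settle the direction in those cells.

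Ifitm3 stood out in the same way. Its log2 ratio with the ERK inhibitor was 0.84 (0.77 to 0.92) in clusters 2 and 26 and -0.87 (-1.004 to -0.737) in cluster 7, a difference of 1.71 that was not tested. Keratinocyte markers were lower with the ERK inhibitor in both places, at 1.41% of UMIs against 4.08% in DMSO in clusters 2 and 26, and at 0.15% against 5.34% in DMSO in cluster 7. Whether these shares were free RNA or the cells' own RNA was not tested.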

How the results depend on the processing

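No paired analysis was possible because each group is 1 library and the labels give no replicate numbers. Values here are log2 ratios, medians over the members unless a member is named, and the causes were not tested. Relative to the class's own markers, which shifts every gene of a class by the same amount, the ERK inhibitor median was 0.46 over the members and -1.0 over all genes in endothelium, -2.06 and -3.58 in cluster 7, and 1.12 and 0.82 in clusters 2 and 26. The ErbB2 inhibitor median was -0.62 over the members and -0.90 over all genes in endothelium and 0.83 and 1.02 in clusters 2 and 26. The FGFR inhibitor median was -0.41 over the members and -0.79 over all genes in endothelium, -0.27 and -0.87 in cluster 7, 0.26 and -0.54 in T cells, and -0.13 and -0.11 in the outer root sheath, and with FGF2 and NRG1 beads it was -0.55 and -0.77 in the outer root sheath. With at least 100 UMIs, cluster 7 gave -2.71 with the ERK inhibitor over 2 members, -0.52 with the ErbB2 inhibitor and -0.48 with the FGFR inhibitor, and thinned cells gave -0.20 with the FGFR inhibitor. Endothelial cluster 29 alone gave 0.59 and marker-led cells of cluster 7 gave 0.36 with the ERK inhibitor, a minimum of 1 UMI gave 0.83 in clusters 2 and 26, and means over cells gave 0.21 in the outer root sheath with the ErbB2 inhibitor.

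Single members also changed sign. Of 24 such values, 12 came from the scaling to class markers, whose shift common to all genes gives them, so they say nothing of a member against other genes. These were, in cluster 7 with the ERK inhibitor, Gbp7 (-1.26), Isg20 (-1.56), Samd9l (-1.74) and Mx1 (-1.80); with the ErbB2 inhibitor Mx1 (-0.24) and Ifitm1 (-0.31) in endothelium, Irf1 (-0.16) in cluster 7 and Ifitm1 (0.26) in clusters 2 and 26; and with the FGFR inhibitor Gbp3 (-0.072) and Ifih1 (-0.11) in endothelium and Ifi27l2a and Ifitm1 (both -0.25) in cluster 7. Marker-led cells gave Ifitm1 1.38 with the ERK inhibitor and Irf1 -0.74 with the ErbB2 inhibitor in cluster 7. Thinning gave Trim25 -0.021 in endothelium with the ErbB2 inhibitor; Ifi27l2a -0.10 and Ifitm1 -1.04 in cluster 7 and Bst2 0.26 in clusters 2 and 26 with the FGFR inhibitor; and, with FGF2 and NRG1 beads, Usp18 -0.50 and Ifit3 -0.48 in endothelium, Gbp7 -0.25 in T cells, and Ifi27l2a -0.32 and Eif2ak2 -1.0 in clusters 2 and 26, where means over cells gave Trim25 -0.30. Over all alternatives of single members, 364 values kept their direction within the interval, 54 moved past it and 24 changed sign.

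At 2-fold, members that were higher numbered 0 of 4 in clusters 2 and 26 with the ERK inhibitor, beside 7.57% of all genes, and 1 of 20 in endothelium with the ErbB2 inhibitor, beside 2.57%. With the FGFR inhibitor they were 1 of 19 in endothelium (3.33% of all genes), 2 of 8 in cluster 7 (9.16%), 2 of 9 in T cells (4.86%), 0 of 7 in clusters 2 and 26 (1.72%) and 0 of 3 in the outer root sheath (1.53%). With FGF2 and NRG1 beads they were 3 of 29 in endothelium (1.49% of all genes), 4 of 19 in cluster 7 (4.90%), 1 of 7 in T cells (3.24%) and 1 of 5 in clusters 2 and 26 (1.64%). Members lower by 2-fold were 0 of 9 in cluster 7 (5.31% of all genes), 0 of 9 in T cells (3.37%) and 0 of 7 in clusters 2 and 26 (2.11%) with the ErbB2 inhibitor, 0 of 8 in cluster 7 (8.17%) and 0 of 7 in clusters 2 and 26 (2.63%) with the FGFR inhibitor, and 0 of 29 in endothelium (2.26%) with FGF2 and NRG1 beads.

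The summed level without IFITM genes, in CPM, was 3244 thinned and 3636 averaged over cells in endothelium with the ERK inhibitor, 1072 and 1029 in DMSO, 1313 and 1283 with FGF2 and NRG1 beads, and 954 and 968 with PBS beads. It was 1697 averaged in cluster 7 with the ERK inhibitor, 1279 thinned in T cells with the ErbB2 inhibitor, 93.5 thinned in clusters 2 and 26 of DMSO, 173 averaged there with PBS beads, and, thinned in the outer root sheath, 41.5 with the ErbB2 inhibitor and 229 with FGF2 and NRG1 beads. Depth was limited in small classes, such as 44 endothelial and 19 T cells with the ERK inhibitor, and 36 T cells with PBS beads.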
